A study of Mus musculus with 18 samples.

Results

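The transcripts described here belong to 10 genes for matricellular proteins: the thrombospondins Thbs1, Thbs2 and Thbs3, the spondins Spon1 and Spon2, the tenascins Tnc and Tnxb, and the SPARC family members Sparc, Sparcl1 and Smoc2. They were taken from a fixed list of gene symbols, found by Ensembl identifier among the 55401 lines of the endothelial table and by symbol among the 22612 lines of the table of EO771 cells. The list was chosen by readout, with values of these same libraries known, so the levels and differences of its members are given as a description, without p-values. The series holds RNA sequencing of 18 mouse libraries, with 3 in each of 6 groups. Wild-type C57BL/6 mice, obtained at 5 to 6 weeks of age, gave 4 groups of sorted endothelial cells, and their age at sorting is not stated. BEC normal are blood vessel endothelial cells (BECs) of the fat pad. BEC tumour are BECs of a primary EO771 tumour, EO771 being a mouse breast cancer line. HEC normal are high endothelial cells (HECs) of lymph nodes of mice without tumour. HEC tumour are HECs of tissue labelled as lymph node metastases. All 4 were sorted as CD45- CD31-high cells, and the PNAd antigen parted HECs (PNAd+) from BECs (PNAd-). The fat pads, tumours and lymph nodes were each dissociated with their own enzymes and times, so cell type, tissue and dissociation cannot be told apart between HECs and BECs, nor can tumour, tissue and dissociation between the BEC groups. The other 2 groups are cultured EO771 cells kept for 48 h with 12-HETE at 100 nM, a lipid made from arachidonic acid, or with its vehicle of saline and DMSO. They are 1 cell line. The labels number the libraries of a group as replicates and the study calls them independent experiments, without stating how many animals or cultures each library came from.

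Matricellular proteins are secreted into the extracellular matrix but, unlike collagens, mostly signal to cells instead of bearing load. They bind integrins and other cell surface receptors, growth factors and collagen, and most are low in resting adult tissue and induced in wounds, inflammation and tumours. Blood vessels are among their main sources and targets: thrombospondins 1 and 2 restrain the growth of new vessels through CD36 and CD47, tenascin-C is laid down around growing tumour vessels, and SPARC is abundant in cultured endothelium. The SPARC relative encoded by Sparcl1 also carries the name hevin, after the high endothelial venules from which it was isolated. These venules, lined by HECs, are the vessels through which lymphocytes leave the blood for the lymph node.

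The promoters of the members whose levels set the endothelial groups apart are shown here, as far as RefSeq holds them for the GRCm38.p6 build. Of the 10 members, 5 were matched (Sparc, Thbs2, Thbs3, Tnc and Tnxb). The 250 bases before the RefSeq start follow for 3 genes that were lower in HECs and for Tnxb, which was higher, 5′ to 3′ on the strand of the gene. For Tnc, the first of its starts in the table was taken. The RefSeq start of Sparc lies inside the GENCODE span of the gene given below, and so does its window. Capitals mark each match, on either strand, to TATAA (the TATA box core), CCAAT (the CCAAT box core), GGGCGG (the SP1 box) or GGAATG (the core bound by TEAD factors).
Thbs2, chr17:14694263-14694512, minus strand: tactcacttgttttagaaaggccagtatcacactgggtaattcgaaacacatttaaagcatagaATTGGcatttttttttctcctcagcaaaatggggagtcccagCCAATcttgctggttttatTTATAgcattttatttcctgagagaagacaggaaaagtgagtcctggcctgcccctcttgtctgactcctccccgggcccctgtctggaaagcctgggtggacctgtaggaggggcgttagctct
Tnc, chr4:64047016-64047265, minus strand: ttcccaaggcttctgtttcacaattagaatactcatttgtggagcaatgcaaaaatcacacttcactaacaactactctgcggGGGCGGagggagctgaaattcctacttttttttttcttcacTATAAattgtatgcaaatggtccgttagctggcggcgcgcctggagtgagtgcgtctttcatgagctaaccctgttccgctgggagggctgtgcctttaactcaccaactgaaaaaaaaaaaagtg
Sparc, chr11:55420081-55420330, minus strand: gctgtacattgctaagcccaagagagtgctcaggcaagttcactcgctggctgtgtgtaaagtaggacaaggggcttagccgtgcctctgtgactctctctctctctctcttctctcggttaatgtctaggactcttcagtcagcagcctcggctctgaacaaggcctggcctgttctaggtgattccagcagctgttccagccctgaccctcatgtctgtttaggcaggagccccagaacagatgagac
Tnxb, chr17:34670285-34670534, plus strand: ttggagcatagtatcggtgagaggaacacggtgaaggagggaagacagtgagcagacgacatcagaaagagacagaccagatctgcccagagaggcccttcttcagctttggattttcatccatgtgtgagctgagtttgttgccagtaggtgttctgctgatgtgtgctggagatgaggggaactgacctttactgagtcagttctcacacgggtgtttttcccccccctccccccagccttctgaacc
The Thbs2 window held TATAA on the opposite strand 125 bases before the start and CCAAT on both strands, 144 bases before it on the strand of the gene and 186 on the other. The Tnc window held TATAA at 126 and GGGCGG at 167 bases before the start. The Thbs3 window, not printed, held GGGCGG at 21 and CCAAT at 98 bases, both on the opposite strand. None of the 4 motifs stood in the Sparc or Tnxb window, and GGAATG stood in none of the 5. Over all 27025 promoter windows of this length, 23.5% held TATAA, 34.5% CCAAT, 32.9% GGGCGG and 12.6% GGAATG. These are matches of letters in the windows and nothing more.

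The endothelial libraries summed to between 56.4 and 79.4 M and the EO771 libraries to between 17.3 and 18.6 M. The low endothelial values pile up at steps of 3.67 to 3.71, the best step between 3 and 5, the only range searched. Some values lie off these steps, such as Gp1bb at 0.882 in BEC normal replicate 1. The origin of the steps is not stated, and 1 fragment was taken as worth about 1 step. Levels below are normalised counts, that is, counts divided by the size factor of the library, and errors are the SD over 3 libraries. A level of 3 fragments was taken as the upper limit, by counting error, of the true level behind an observed count of 0. Such a count makes a higher level unlikely and does not exclude it, so folds given below as at least a value rest on this limit. The level of 3 fragments stood between 9.77 and 12.0 normalised counts in the endothelial groups. The endothelial markers Pecam1 (41041 to 57961 on average) and Cdh5 (44000 to 63041) were high in all 4 groups, and the defining HEC transcript Glycam1 stood at 39129 to 71579 in the 6 HEC libraries and at 0 in the 6 BEC libraries. The HEC markers Madcam1 and Ackr1 were at or near 0 in HECs as well, and the tight junction gene Cldn5 was at 17771 in BEC normal and between 23.8 and 74.7 on average in the other 3 groups. There were 3 libraries that stood apart in single markers: HEC normal replicate 2 (Chst4 at 4.07 against 19906 and 20205), HEC tumour replicate 3 (Fut7 at 14255 against 66478 and 65523) and BEC tumour replicate 3 (the epithelial keratin Krt8 at 2235 against 35.2 and 179). Results that moved without them are given beside the value.

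**Figure D1:**
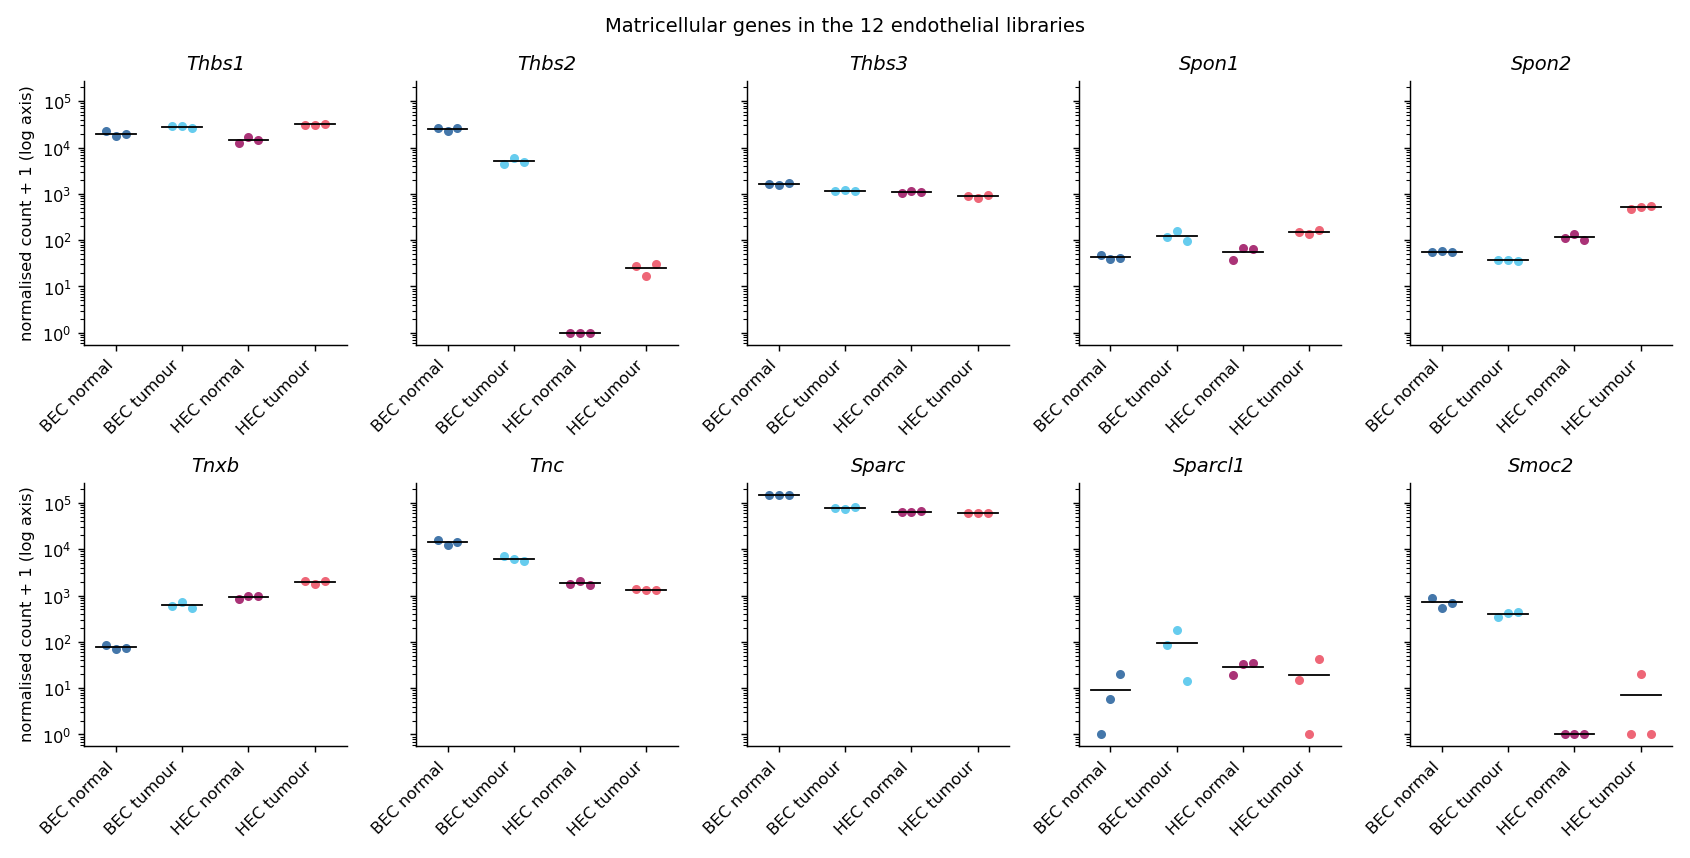
Normalised count + 1 (log axis) of the 10 matricellular genes in the 12 endothelial libraries, 1 panel a gene, with a point for each library and a line at the mean of the group. Thbs2 and Smoc2 are high in both BEC groups and at 0 in HEC normal, Tnxb is lowest in BEC normal, and Sparc is highest in BEC normal.

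Thrombospondin 1, the product of Thbs1 (chr2:118111876-118127133, plus strand), is a large glycoprotein that activates latent TGF-beta and binds CD36 and CD47. Thbs1 stood at 22547, 17768 and 19755 in BEC normal (20023 ± 2401, n = 3) and at 29275, 28840 and 26686 in BEC tumour (28267 ± 1386). It stood at 12829, 16560 and 14414 in HEC normal (14601 ± 1872) and at 31434, 30915 and 32194 in HEC tumour (31515 ± 644). The groups ran, from high to low, HEC tumour, BEC tumour, BEC normal and HEC normal, and no neighbours in this order overlapped. The log2 fold change of HEC tumour against HEC normal was 1.11 ± 0.11 (SE), past both thresholds used throughout, which are an adjusted p under 0.05 over all genes tested and a log2 fold change beyond 1 or -1. The corresponding value for BEC tumour against BEC normal was 0.50 ± 0.11, which did not reach the threshold for size. The interaction, which takes the tumour difference of BECs from that of HECs, was 0.61 ± 0.15 for Thbs1, also under the threshold for size. The platelet list, of interest because platelets store thrombospondin 1, summed to 22.4 to 28.8 CPM (counts scaled to library size) in BEC normal and 27.4 to 32.2 in BEC tumour. In HECs it summed to 16.6 to 19.4 CPM without tumour and 12.7 to 14.3 with it. Most of the sum came from Pf4 in BECs (1314 and 1371 normalised counts on average without and with tumour, against 85.3 and 74.0 in HECs) and from Itga2b in HECs (1024 and 683, against 395 and 386 in BECs). Of its 6 markers, Ppbp was at 0 in both normal groups. The part of platelets in the Thbs1 levels was not tested. An antisense gene, Gm29233, shares 208 exonic bases with Thbs1, and without a stated strand setting its reads cannot be parted from those of Thbs1.

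Thbs2 (chr17:14665500-14694235, minus strand) encodes thrombospondin 2, the close relative that also restrains vessel growth. It stood at 26563, 23114 and 25992 in BEC normal (25223 ± 1849) and at 4502, 5979 and 4976 in BEC tumour (5153 ± 754). It was at 0 in all 3 HEC normal libraries and at 26.6, 15.8 and 29.9 in HEC tumour (24.1 ± 7.37). BEC normal lay above BEC tumour, BEC tumour above HEC tumour and HEC tumour above HEC normal with no overlap. Thbs2 was at least 2286-fold lower in HEC normal than in BEC normal, with HEC normal set at the level of 3 fragments per library. The log2 fold change of HEC tumour against BEC tumour was -7.76 ± 0.22 and that of BEC tumour against BEC normal was -2.29 ± 0.13, both past the thresholds. In HEC tumour it was at least 2.18-fold higher than in HEC normal, again past both thresholds, though its 3 values lay between 15.8 and 29.9, close to the 12.0 that 3 fragments give. The interaction was past the thresholds and positive, and its size is not resolved, because 1 of the 4 groups is at 0.

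The third thrombospondin, Thbs3 (chr3:89215180-89226837, plus strand), forms pentamers and lacks the domains by which the first 2 act on vessels. Its levels were close together: 1599, 1539 and 1676 in BEC normal, 1139, 1193 and 1138 in BEC tumour, 1025, 1134 and 1115 in HEC normal, and 905, 832 and 925 in HEC tumour. BEC normal was the highest group and HEC tumour the lowest, and neighbouring groups did not overlap. In the 4 comparisons of groups its log2 fold changes ran from -0.56 ± 0.08 (HEC normal against BEC normal) to -0.30 ± 0.08 (HEC tumour against HEC normal), under the threshold for size in each. Its exons share 318 bases with the antisense gene Mtx1.

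Of the spondins, Spon1 (chr7:113765998-114043370, plus strand) encodes F-spondin, a secreted protein of the nervous system's floor plate that binds lipoprotein receptors such as LRP8. Spon1 stood at 47.6, 37.7 and 39.6 in BEC normal (41.6 ± 5.28) and at 116, 157 and 95.0 in BEC tumour (123 ± 31.7). It stood at 35.5, 65.1 and 65.0 in HEC normal (55.2 ± 17.1) and at 148, 132 and 162 in HEC tumour (147 ± 14.7). Both tumour groups lay above both normal groups, while the 2 tumour groups overlapped each other, and so did the 2 normal groups. The log2 fold change with tumour was 1.41 ± 0.33 in HECs and 1.56 ± 0.33 in BECs, each past the thresholds, and the interaction was -0.14 ± 0.47. That interaction turned to 0.077 without BEC tumour replicate 2.

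Spon2 (chr5:33198184-33218455, minus strand) encodes mindin, a matrix protein that binds bacterial products and integrins of leukocytes. Spon2 stood at 55.6, 57.7 and 53.8 in BEC normal (55.7 ± 1.91) and at 37.1, 36.4 and 34.0 in BEC tumour (35.8 ± 1.62). It stood at 112, 137 and 98.4 in HEC normal (116 ± 19.8) and at 473, 529 and 538 in HEC tumour (513 ± 35.0). Every HEC library lay above every BEC library, and the tumour group was the highest in HECs and the lowest in BECs. HEC tumour against HEC normal gave a log2 fold change of 2.15 ± 0.19, a 4.43-fold difference in mean level, and HEC tumour against BEC tumour gave 3.84 ± 0.22, a 14.3-fold difference. BEC tumour against BEC normal gave -0.64 ± 0.24, under the threshold for size, and the interaction was 2.79 ± 0.31, past both thresholds. HEC normal against BEC normal gave 1.06 ± 0.22, just past the threshold for size. Without HEC normal replicate 2 this last value was 0.92, and without all 3 libraries that stood apart it was 0.93, so the call was lost in both cases.

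The tenascins moved in opposite directions. Tenascin-C, from Tnc (chr4:63959785-64047015, minus strand), is a large modular protein of wound and tumour matrix. Tnc stood at 15796, 12304 and 14540 in BEC normal (14213 ± 1769) and at 7116, 6123 and 5539 in BEC tumour (6259 ± 798). It stood at 1786, 2074 and 1668 in HEC normal (1843 ± 209) and at 1393, 1309 and 1342 in HEC tumour (1348 ± 42.8). No groups overlapped, with both BEC groups above both HEC groups and each tumour group below its normal group. Tnc was 7.71-fold lower in HEC normal than in BEC normal (log2 fold change -2.95 ± 0.13) and 4.64-fold lower in HEC tumour than in BEC tumour (-2.22 ± 0.13). BEC tumour against BEC normal gave -1.18 ± 0.13, also past the thresholds, and HEC tumour against HEC normal gave -0.45 ± 0.13, which was not. The exons of Tnc share 176 bases with 8030451A03Rik on the other strand.

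Tenascin-X, from Tnxb (chr17:34670535-34719815, plus strand), spaces collagen fibrils in loose connective tissue, and its loss makes skin and joints lax. Tnxb stood at 85.5, 70.6 and 73.1 in BEC normal (76.4 ± 7.99) and at 584, 721 and 545 in BEC tumour (617 ± 92.3). It stood at 842, 957 and 963 in HEC normal (921 ± 68.3) and at 2018, 1820 and 2016 in HEC tumour (1951 ± 114). BEC normal was lowest, followed by BEC tumour and then HEC normal, and HEC tumour was highest, without overlap. Without tumour, the level of Tnxb in HECs was 12.0-fold that in BECs (log2 fold change 3.58 ± 0.16) and with tumour it was 3.16-fold (1.66 ± 0.13). Against the normal group it was 8.07-fold higher with tumour in BECs (3.01 ± 0.16) and 2.12-fold higher in HECs (1.08 ± 0.13). All 4 differences passed the thresholds, and the interaction of -1.92 ± 0.21, past them as well, gives the smaller change in HECs. With the most exonic bases of the set, 12209, these counts make Tnxb a minor member per length in the endothelial groups. Its share there was 0.0130% to 0.736% of the summed level per kb of all 10 members.

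Sparc (chr11:55394500-55423183, minus strand) encodes SPARC or osteonectin, which binds collagen and calcium and loosens the contact of cells with matrix. Sparc stood at 144925, 150531 and 148829 in BEC normal (148095 ± 2874) and at 75918, 74480 and 81660 in BEC tumour (77353 ± 3799). It stood at 65122, 65278 and 65381 in HEC normal (65260 ± 130) and at 59340, 59632 and 60677 in HEC tumour (59883 ± 703). BEC normal lay apart from the other 3 groups, which were closer together but did not overlap either. HEC normal against BEC normal gave a log2 fold change of -1.18 ± 0.04, past the thresholds, and BEC tumour against BEC normal gave -0.94 ± 0.04, a 1.91-fold difference that fell short of the threshold for size. HEC tumour against BEC tumour gave -0.37 ± 0.04 and HEC tumour against HEC normal gave -0.12 ± 0.04. Per kb of exon, Sparc made up 81.0% and 75.6% of the summed level of the 10 members in BECs without and with tumour, and 85.2% and 72.8% in HECs. Thbs1 made up 6.83% and 17.2% in BECs and 11.9% and 23.9% in HECs, second to Sparc except in BEC normal, where Thbs2 made up 7.46%.

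The other SPARC relatives were far lower. Sparcl1 (chr5:104079111-104113733, minus strand), the hevin gene, stood at 0, 4.71 and 19.3 in BEC normal, at 83.5, 181 and 13.1 in BEC tumour, at 18.3, 32.6 and 33.4 in HEC normal, and at 13.9, 0 and 42.1 in HEC tumour. Every pair of groups overlapped, and the 3 BEC tumour libraries ran from 13.1 to 181. BEC tumour against BEC normal was past the thresholds (log2 fold change 3.53 ± 1.41) although the groups overlapped. It was not past them in edgeR (3.55), nor when 1 of 4 libraries of these groups was left out: 2.94 and 3.26 without BEC normal replicates 1 and 2, and 3.6 and 2.6 without BEC tumour replicates 1 and 2. The HEC comparisons for Sparcl1 did not pass, though single libraries decided this: HEC normal against BEC normal (1.81 ± 1.42) passed at 3.62 without BEC normal replicate 3, and HEC tumour against BEC tumour (-2.31 ± 1.39) passed at -3.75 without HEC tumour replicate 3 and at -4.27 without the 3 libraries that stood apart.

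Smoc2 (chr17:14279506-14404790, plus strand) encodes a calcium-binding matrix protein related to SPARC that promotes growth factor signalling. Smoc2 stood at 882, 547 and 705 in BEC normal (711 ± 167) and at 335, 412 and 432 in BEC tumour (393 ± 51.5). It was at 0 in all 3 HEC normal libraries and at 0, 18.7 and 0 in HEC tumour. Both BEC groups lay above every HEC library, and BEC tumour lay below BEC normal without overlap. Smoc2 was at least 64.5-fold lower in HEC normal than in BEC normal, and it was called lower in HEC tumour than in BEC tumour. The size of that difference is not resolved, since the HEC tumour mean of 6.25 lies under the level of 3 fragments, and the fitted value of -5.96 ± 1.5 went to -10.88 without HEC tumour replicate 2. BEC tumour against BEC normal gave -0.86 ± 1.46, which was not. The fit also called HEC tumour against HEC normal, but both groups were at or under the level of 3 fragments, only HEC tumour replicate 2 had a value above 0, and without it the fitted value was 0, so no fold is given.

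**Figure D2:**
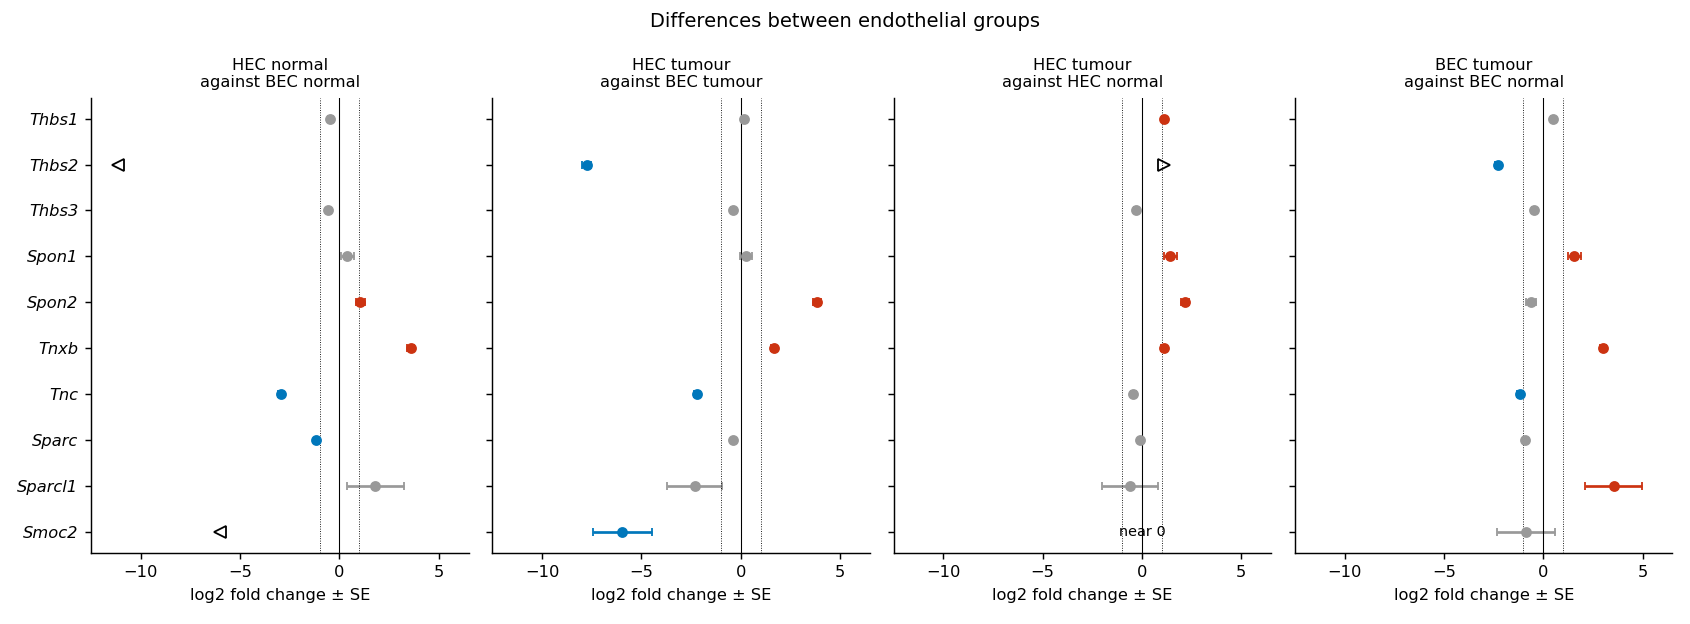
Log2 fold change ± SE of each member in the 4 comparisons of endothelial groups; red and blue points are past both thresholds (higher and lower), grey points are not, open triangles are bounds for genes at 0 in HEC normal, and dotted lines mark 1 and -1. Thbs2, Tnc and Smoc2 lie on the lower side in both comparisons of HECs with BECs, and Spon2 and Tnxb on the higher side. No point is drawn for Smoc2 in HEC tumour against HEC normal. The words near 0 in its place refer to the levels of both groups and not to the fold change.

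HECs of lymph nodes and BECs of the fat pad were compared without tumour. Cell type, tissue and dissociation cannot be told apart in this comparison, and BEC normal carried more pericyte and smooth muscle transcripts, as given below. HEC normal was higher than BEC normal in Spon2 and Tnxb and lower in Thbs2, Tnc, Sparc and Smoc2. Of the 10 members, all tested, 2 were called higher, against 17.1% of the 18511 genes tested, and 4 lower, against 15.1%. Their median log2 fold change was -0.51, and that of all genes tested was 0.0046. With tumour, HECs were higher than BECs in the same pair, Spon2 and Tnxb, and lower in Thbs2, Tnc and Smoc2. These are 2 members higher (11.2% of all genes) and 3 lower (10.7%), with a median of -0.38. Sparc was on the lower side in both comparisons but within the threshold for size with tumour.

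HECs with and without tumour were compared for the response of high endothelium to a tumour. Thbs1, Spon1, Spon2 and Tnxb were higher in HEC tumour, by 1.08 to 2.15 on the log2 scale, and Thbs2 rose from 0 to a level near the counting limit. With the unresolved Smoc2 included, 6 members were called higher and 0 lower, against 4.58% and 3.21% of all genes tested, and their median log2 fold change was 1.10 against 0.019 over all genes. With Smoc2 set aside for its levels the count is that of the 5 genes just named. By edgeR, 5 of the members were called. Tnc, Sparc and Thbs3 were lower by 0.12 to 0.45 without passing. BECs of tumour and fat pad gave 3 members higher (Spon1, Tnxb and the unstable Sparcl1; 12.4% of all genes) and 2 lower (Thbs2 and Tnc; 10.8%), with a median of -0.55. HEC normal and BEC normal each serve in more than 1 of these comparisons, so the comparisons are not independent of each other.

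The interaction asks whether HECs and BECs differ in their change with tumour. It was called positive for Thbs2, Spon2 and Smoc2, against 11.2% of all genes, and negative for Tnxb, against 12.1%. Of these 3 positive interactions, that of Spon2 alone has a resolved size. The call of Smoc2 (5.96 ± 2.40) was lost without any 1 of the BEC libraries (5.78 to 6.12), without HEC normal replicate 3 (5.93) and without HEC tumour replicate 2 (1.04). The interaction of Sparcl1 was -4.13 ± 1.99 and not past the thresholds, and it passed without replicate 3 of BEC normal (-5.94), of BEC tumour (-4.65) or of HEC tumour (-5.57). That of Sparc was 0.81 ± 0.06, under the threshold for size.

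In these bulk libraries, fewer cells of a type and less RNA per cell cannot be told apart, and the sorted cells carried transcripts of other cell types that also make matricellular proteins. The 6 fibroblast markers summed to 217 to 225 CPM in BEC normal and 22.8 to 54.6 in BEC tumour, and to 17.0 to 19.6 and 8.19 to 9.12 in HECs without and with tumour. The 7 pericyte and smooth muscle markers summed to 710 to 716 and 68.8 to 102 CPM in the same BECs and to 31.6 to 33.8 and 18.1 to 21.3 in the same HECs. The sums of both lists were thus highest in BEC normal, the group with the highest Thbs2, Thbs3, Tnc, Sparc and Smoc2. Thbs1, Spon1, Spon2, Tnxb and Sparcl1 were highest in other groups. The sums were lowest in HEC tumour, as were Thbs3, Tnc and Sparc, while Thbs2 and Smoc2 were lowest in HEC normal. Single markers did not all follow the sums. Des averaged 391 and 446 in BECs without and with tumour and 559 and 507 in HECs. Myh11 averaged 16.4 and 38.7 in the same BECs and 24.2 and 6.08 in the same HECs. Dcn averaged 181 in BEC normal and 481 in BEC tumour, and Pdgfra 1123 in BEC normal and 1082 in HEC normal. In BEC tumour against BEC normal, 4 of the 5 fibroblast markers tested were called lower and 1 higher, as were 4 of the 7 pericyte and smooth muscle markers (lower). In HEC normal against BEC normal, 4 of each list were called lower and none higher. The fibroblast marker Lum was at 0 in both normal groups, and the contractile gene Acta2 averaged 43028, 3270, 202 and 14.5 in the 4 groups. The 6 myeloid markers, several of which mark macrophages, summed to 108 to 128 CPM in BEC normal and 1462 to 1960 in BEC tumour, and to 483 to 509 and 355 to 374 in HECs without and with tumour. In HECs nearly all of this sum was Cd68 (33269 normalised counts on average without tumour), while Ptprc (19.0), Itgam (7.89) and Adgre1 (1.27) were at or near the level of 3 fragments there, and 1 of the 6 was called higher and 1 lower in HEC normal against BEC normal. Epithelial and tumour cell markers summed to 3.61 to 6.92 and 14.3 to 84.3 CPM in these BECs and to 27.9 to 31.2 and 31.2 to 34.1 in these HECs, with Epcam at 0 in HEC tumour. In HECs most of this sum was Krt19 (1865 and 2021 normalised counts on average without and with tumour), while Krt8 averaged 16.7 and 19.0. Of these 5 markers, 1 was called higher and 0 lower in HEC normal against BEC normal. The part of these cells in the member levels was not tested. Lymphatic endothelial markers summed to between 200 and 362 CPM in all 12 libraries. Most of that sum came from Lyve1 and Flt4. The lymphatic marker Prox1 averaged 7.63 and 26.0 normalised counts in BECs without and with tumour, and 4.06 and 3.08 in HECs. Lymph node reticular markers summed to at most 7.66 CPM and adipocyte markers to at most 0.761.

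**Figure D3:**
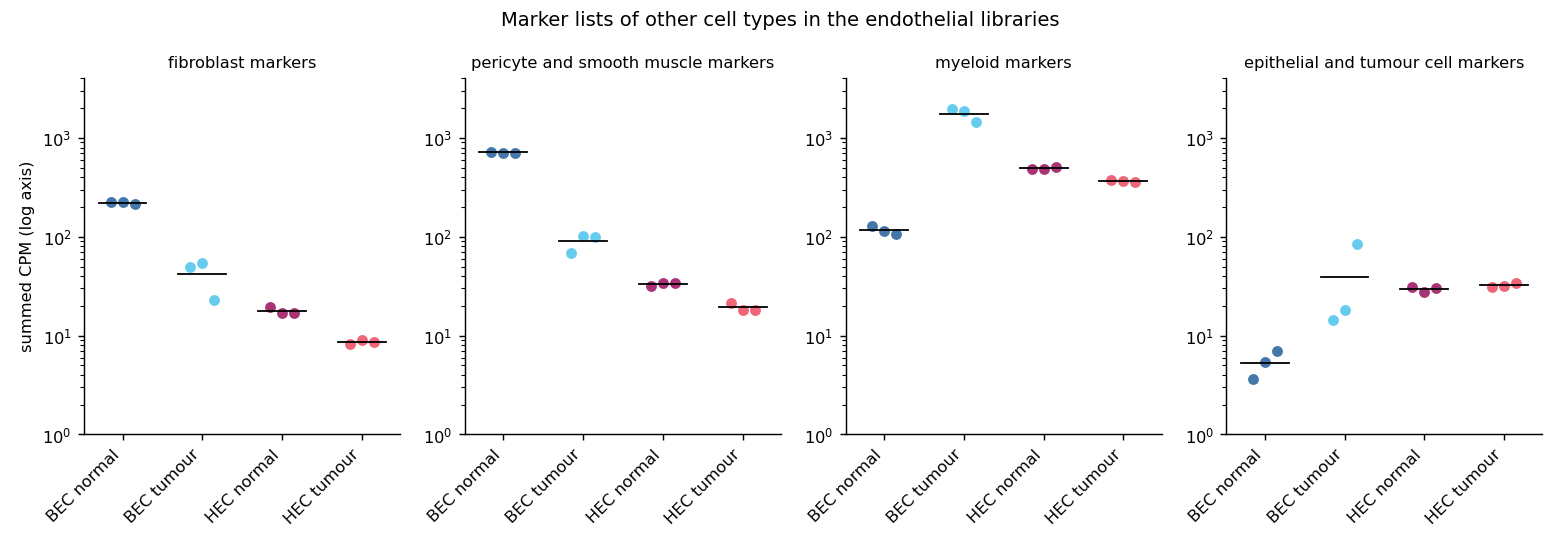
Summed CPM (log axis) of the fibroblast, pericyte and smooth muscle, myeloid, and epithelial and tumour cell marker lists in the 12 endothelial libraries, with a point for each library and a line at the mean of the group. The first 2 lists are highest in BEC normal (217 to 225 and 710 to 716 CPM), and the myeloid list is highest in BEC tumour (1462 to 1960 CPM).

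Other matricellular genes formed a list of 18, of which 13 were tested in endothelium. In HEC normal against BEC normal, 2 were higher and 7 lower (17.1% and 15.1% of all genes tested), with a median log2 fold change of -1.60. Those higher were Nov (3.24 ± 0.07), a CCN family gene known to be made by endothelium, and Smoc1 (2.68 ± 0.09), the relative of Smoc2. Thus Smoc1 averaged 1824 in HEC normal and 284 in BEC normal while Smoc2 was at 0 and 711. Lower were, among others, Tgfbi (-4.25 ± 0.39), which encodes a TGF-beta induced adhesion protein, and Ctgf (-3.81 ± 0.11), the connective tissue growth factor of the CCN family. The CCN gene Wisp2 was lower as well, at 3.82 against 61.8.

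With tumour, 1 gene of this list was higher in HECs, Ctgf (1.65 ± 0.11), and 0 were lower, with a median of 0.24, against 4.58% and 3.21% of all genes. Without HEC normal replicate 3 the list had 3 higher, and without HEC normal replicate 1 it had 1 lower. In BECs with tumour, 3 were higher and 3 lower (12.4% and 10.8% of all genes), with a median of -0.78. Smoc1 (2.84 ± 0.09) and Nov (1.75 ± 0.07) were higher, as was Postn, encoding periostin, at 68.7 against 5.06, a call that was lost without any 1 of these 6 libraries. Ctgf (-2.45 ± 0.11), the proteoglycan gene Spock2 (-2.39 ± 0.34) and the CCN gene Wisp1 (-1.47 ± 0.09) were lower. Ctgf therefore fell in BECs and rose in HECs, with an interaction of 4.10 ± 0.15, and the interaction was also called for Spock2 (2.80 ± 0.48), Wisp1 (2.38 ± 0.14), Smoc1 (-2.65 ± 0.11) and Nov (-1.51 ± 0.10). In HEC tumour against BEC tumour, 2 of the list were higher, Nov (1.73 ± 0.07) and Spock2 (1.46 ± 0.35), and 3 lower, namely Postn (1.64 against 68.7), Tgfbi (9.98 against 206) and the osteopontin gene Spp1 (-1.30 ± 0.17). The median was -0.04, and 11.2% and 10.7% of all genes were called.

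Receptors and binding partners of the members formed a list of 20, all tested. In HEC normal against BEC normal, 1 was higher and 9 lower (median -0.84), against 17.1% and 15.1% of all genes, and in HEC tumour against BEC tumour 0 were higher and 9 lower (median -0.66), against 11.2% and 10.7%. The thrombospondin receptor gene Cd36 averaged 4.28 in BEC normal and 2495 in BEC tumour, and 58.6 and 9.19 in HECs without and with tumour. It was called higher with tumour in BECs and lower in HECs, and its interaction was called negative, but BEC normal (0, 4.71 and 8.13) and the HEC tumour mean lie under the level of 3 fragments, so the sizes are not resolved. Cd36 is also made by macrophages, which the CD45- sort is meant to remove, and the myeloid list was highest in BEC tumour. Their part in the Cd36 level was not tested. Vldlr, the very low density lipoprotein receptor to which thrombospondins also bind, averaged 2418 in BEC normal and 10.04 in HEC normal, and it was called lower there. Vldlr was lower with tumour in BECs (-2.30 ± 0.29) and higher in HECs (45.7 on average), and the interaction was called positive. As HEC normal lies under the level of 3 fragments, the sizes of the differences from it are not resolved.

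Further partners differed between HECs and BECs. Cacna2d1, the calcium channel subunit that binds thrombospondins, was lower in HEC normal than in BEC normal (-5.38 ± 0.47) and in BEC tumour than in BEC normal (-2.08 ± 0.44). The integrin gene Itga9, whose product binds tenascin-C, was lower in HEC normal (-4.43 ± 0.74) and in HEC tumour (9.60 against 275) than in the matching BECs. The HEC tumour mean and HEC normal replicates 2 and 3 (10.2 and 7.64, against 38.5 in replicate 1) lay under the level of 3 fragments. The sizes of both Itga9 differences are therefore not resolved. Itga8, another integrin subunit for tenascin-C, averaged 71.1 and 25.6 in BECs without and with tumour and 21.4 in HEC normal, and it was at 0 in all 3 HEC tumour libraries. In BECs with tumour, 2 partners were higher and 5 lower (median -0.61, against 12.4% and 10.8% of all genes), among them Lrp8 (1.76 ± 0.14), a reelin receptor that binds F-spondin and thrombospondin 1, and Tgfb1 (-1.33 ± 0.08), the latent growth factor. In HECs with tumour, 1 was higher and 2 lower (median -0.38), against 4.58% and 3.21%. The interaction was called positive for 4 partners (11.2% of all genes), among them Cacna2d1 (1.55 ± 0.68) and the beta-3 integrin gene Itgb3 (1.15 ± 0.08), and negative for 3 (12.1%), namely Cd36, Itga8 and Lrp8 (-1.77 ± 0.20). With HEC tumour at 0 the size for Itga8 is not resolved, and its call was lost with values divided by the step. The Cacna2d1 call was lost in edgeR and without any 1 of the BEC libraries, HEC normal replicates 1 or 3, or HEC tumour replicates 2 or 3 (0.78 to 1.68).

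The genes whose pattern was most like each member were sought by Pearson's r of log2(normalised count + 1) over the 12 endothelial libraries, among genes with a mean of at least 100. They were Mdn1 (0.975) and Utp14b (0.970) for Thbs1, Ebf3 (0.994) and Gfm1 (0.994) for Thbs2, and Ddx41 (0.990) and Ptprn (0.987) for Thbs3. For the spondins they were Klhl11 (0.953) and Zswim8 (0.944) for Spon1, and Plk2 (0.986) and Lrrc32 (0.985) for Spon2. For the tenascins they were Aplp2 (0.997) and the collagen gene Col12a1 (0.993) for Tnc, and Med17 (0.997) and Rnf39 (0.996) for Tnxb. For the SPARC family they were Chd3 (0.997) and Hdac1 (0.996) for Sparc, Kif1a (0.989) and Greb1 (0.985) for Smoc2, and Raver1 (0.871) and Lrch4 (0.854) for Sparcl1. The 12 points fall into 4 groups and share libraries and depth, so these values describe group patterns only.

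EO771 cells were compared with and without 12-HETE to show how the lipid changes tumour cells. Spon1 was the one member called. It stood at 36.6, 31.5 and 45.04 with vehicle (37.7 ± 6.82) and at 181, 161 and 204 with 12-HETE (182 ± 21.5), so the groups lay far apart. This is a 4.82-fold difference and a log2 fold change of 2.27 ± 0.24. Of the 7 members tested here, 1 was higher and 0 were lower, against 2.38% and 7.79% of the 11602 genes tested. The median over the 7 was -0.21, and over all genes it was 0.0012.

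Thbs1 stood at 4492, 6392 and 5393 with vehicle (5425 ± 951) and at 7211, 6884 and 7189 with 12-HETE (7095 ± 183), a log2 fold change of 0.39 ± 0.14 that did not reach the threshold for size although the groups did not overlap. Tnc stood at 176, 106 and 213 with vehicle and at 101, 97.6 and 110 with 12-HETE (-0.68 ± 0.27), and the groups overlapped. Sparc stood at 5001, 6245 and 4774 with vehicle and at 6225, 6230 and 6158 with 12-HETE (0.22 ± 0.12), with overlap. Tnxb (458, 676 and 428 against 407, 463 and 480), Thbs3 (72.2, 94.6 and 64.5 against 51.3, 71.0 and 58.1) and Spon2 (22.8, 57.3 and 25.6 against 28.8, 10.8 and 19.7) overlapped too. The SD was smaller with 12-HETE than with vehicle in each of these 6 genes and larger in Spon1. Thbs2 had 3, 1 and 0 raw counts with vehicle and 0, 1 and 0 with 12-HETE, and Sparcl1 and Smoc2 had 0 in all 6 libraries, so these 3 genes were not tested. Per kb, Sparc made up 58.8% of the summed member level with vehicle and 56.6% with 12-HETE, and Thbs1 made up 37.2% and 40.4%.

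**Figure D4:**
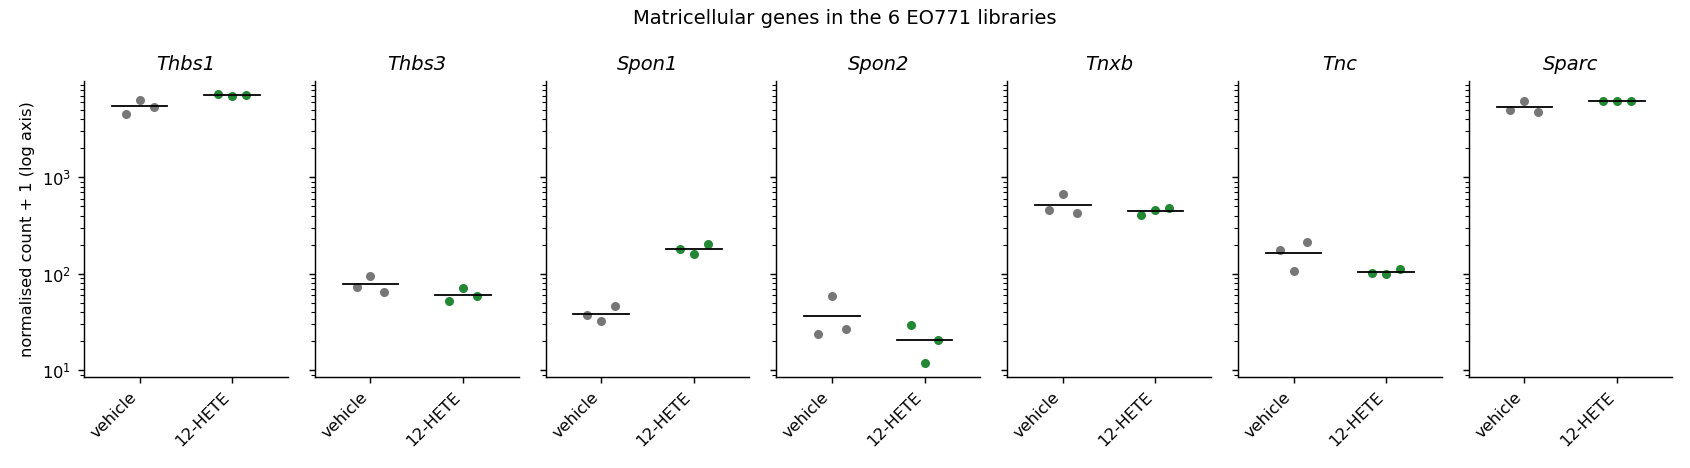
Normalised count + 1 (log axis) of the 7 members tested in EO771 cells, with a point for each of 3 vehicle and 3 12-HETE libraries and a line at the mean of the group. Spon1 is at 31.5 to 45.04 with vehicle and at 161 to 204 with 12-HETE, and the other genes stay within a narrower range.

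Among the other matricellular genes in EO771 cells, 7 were tested, 0 were higher and 3 were lower (2.38% and 7.79% of all genes tested), with a median of -0.80. These were the CCN genes Ctgf (4558 ± 873 with vehicle against 1847 ± 64.5, log2 fold change -1.30 ± 0.15) and Cyr61 (3461 ± 643 against 1418 ± 77.9, -1.29 ± 0.15), and the low Tnr (27.8 against 9.07, -1.62 ± 0.55), whose call was lost without vehicle replicate 1 (-1.57) or 3 (-1.57) or 12-HETE replicate 2 (-1.25) or 3 (-1.52). Of 16 partners tested, 1 was higher and 3 were lower, with a median of -0.06, against the same shares of all genes. Lrp1, an endocytic receptor for thrombospondins, was higher (6472 ± 261 against 13407 ± 434, 1.05 ± 0.08). Vldlr (-1.53 ± 0.16), the heparan sulphate proteoglycan gene Sdc4 (-1.02 ± 0.15) and Itgb3 (-1.11 ± 0.40) were lower. The call of Itgb3 was lost with the replicate number as a block (-1.11) and without vehicle replicates 1 or 2 or any 12-HETE library (-1.02 to -1.19). That of Sdc4 was lost without vehicle replicate 2 (-0.87) or 12-HETE replicate 3 (-0.99), which left 1 partner called lower in either case. Of the fibroblast list, Dcn rose from 9083 to 18401 on average and Pdgfra from 75.8 to 178, while Lum was at 0 in all 6 libraries. The epithelial and tumour cell list summed to 3051 to 3977 CPM with vehicle and 2042 to 2092 with 12-HETE, with 1 of 5 markers called lower. The platelet list summed to 51.1 to 74.6 and 84.0 to 88.5, with 0 of the 2 tested called. Nearly all of the platelet sum was Ppbp (1052 and 1519 normalised counts on average with vehicle and 12-HETE), while Itga2b averaged 57.9 and 35.6. The part of these differences in the member levels was not tested.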

How the data were processed

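RNA was sequenced from 12 sorted endothelial and 6 EO771 libraries (3 per group, grouped by the labels). The authors aligned reads with STAR to GRCm38 and counted them with featureCounts, and the strand setting is not given in the sources used here. For endothelium the deposited values are estimated counts per gene: whole numbers whose low values mostly pile up at steps of 3.67 to 3.71. For EO771 the authors deposited raw counts. Genes with a mean of at least 10 were tested (18511 and 11602) with DESeq2 1.42.0 in R 4.3.3, following the methods of the study: a Wald test, two-sided, with Benjamini-Hochberg adjustment over all genes tested. The study names default parameters, whereas the independent filtering that is a default of DESeq2 was switched off here. The 12 endothelial libraries shared a fit, and the 6 EO771 libraries had their own. A gene was called at an adjusted p under 0.05 and a log2 fold change beyond 1 or -1. The fits were tested on simulated counts, for BEC tumour against BEC normal and for the EO771 comparison alone. The simulation held no stepped values, no groups at 0 and no interaction, so it does not cover the calls that rest on these. CPM marker sums, levels per kb of exon and the limit of 3 counts were computed from the same values; reads are not unique molecules, so the limit covers counting error alone.

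The members, gene lists and markers were chosen with earlier results of these data known. Named were all members, up to 3 called genes in each direction and comparison from each list, and the 2 genes most correlated with each member. In EO771, samples with the same replicate number deviated together (correlations of 0.111, 0.173 and 0.328). The main fit did not use this pairing, which entered only as the replicate block below. Endothelial samples of equal number correlated weakly (-0.03 to 0.13), and their numbers were not taken as pairing them. Alternatives were edgeR 4.0.16, TMM factors, no filter, a replicate block, values divided by the step, fits of only the groups compared, leaving out each library and, chosen after seeing the data, no Cook's distance cut-off and leaving out the 3 libraries that stood apart. Gene positions are from GENCODE on GRCm38; 260 Ensembl identifiers had no match, and 33 EO771 symbols stood on several lines.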

Additional observations from a re-analysis of the deposited data

Results flagged for a closer look

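For 4 members the interaction term of the fit set HECs apart from BECs in their tumour difference, and each is given as a value without explanation. The interaction (log2) was 9.31 for Thbs2, where HEC normal was at 0 so that the size is not resolved. It was 2.79 for Spon2 and -1.92 for Tnxb. It was 5.96 for Smoc2, which rests on 1 HEC tumour library and was 1.04, not past the thresholds, without it.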

How the results depend on the processing

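Over all alternatives, 48 of the 57 member differences kept their direction and their side of both thresholds, 7 lost or gained a call in at least 1 alternative and 2 changed sign. Those 2 were the Spon1 interaction, which ran from -0.38 to 0.077 when single libraries were left out (0.077 without BEC tumour replicate 2), and Tnxb in EO771, which ran from -0.33 to 0.016 (0.016 without vehicle replicate 2). Neither was called. In HEC normal against BEC normal, 1 to 3 members were called higher when single libraries were left out, and 1 (Tnxb) without the 3 libraries that stood apart. Interaction calls on the lower side numbered 1 in the report and 2, with Sparcl1 added, under TMM factors (-4.19), values divided by the step (-4.26), the replicate block (-5.34) and without the 3 libraries that stood apart (-5.98), and 1 to 2 when single libraries were left out. Smoc2 in HEC tumour against HEC normal lost its call with edgeR (5.76), the step (3.29) and the block (4.16), and its interaction lost it with the block (5.13). The replicate block changed no other member call. It left Spon1 in EO771 at 2.27. Endothelial samples of equal number correlated at -0.03 to 0.13 in their deviations from the group means. Depth limits Smoc2 and Thbs2 in HECs and Sparcl1 throughout, whose values lie within a few fragments of 0 in some libraries.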

Other observations

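Smoc2 and Thbs2, the only members at 0 in every HEC normal library and high in both BEC groups, lie on the same chromosome with 260.7 kb between them (chr17:14279506-14404790 and chr17:14665500-14694235). The annotation places the pseudogene Gm49720 and the long non-coding RNA Gm38551 in between, which averaged at most 1.02 and 0 normalised counts in the 4 endothelial groups. This pair was picked after its values were seen, and no test was run on it.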
